A study of Arabidopsis thaliana with 72 samples.

Results

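The genes described here are the photosynthesis genes that Arabidopsis carries on its plastid chromosome: the psa genes of photosystem I, the psb genes of photosystem II, the pet genes of the cytochrome b6f complex, the atp genes of the ATP synthase, and rbcL. They were chosen as the probe sets whose single annotated gene lies on the plastid chromosome and has a lower-case symbol beginning with psa, psb, pet, atp or rbc, with the ndh genes left out. Of the 22810 probe sets on the array, 33 met this rule, 1 for each of 33 genes. They comprised 5 psa, 15 psb, 6 pet and 6 atp genes and rbcL. The rule used annotation and no measured value, but it was set with earlier results of these data known. All 33 were bright enough to be tested.

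Aerial tissue of seedlings was measured on 72 ATH1 arrays, which carry a set of probes against each transcript. The 3 groups of 24 arrays were C24 wild type treated with nicotinamide, the mutant toc1-1 without treatment, and C24 wild type without treatment. Each group consisted of 2 time courses of 12 arrays, harvested at 4 h intervals between 49 and 93 h. All seedlings had been raised for 11 days at 19 C under 12 h of light at 70 µmol per square metre per second and 12 h of darkness, and were then kept in unbroken light at 100 µmol. Nicotinamide inhibits ADP-ribosyl cyclase and is known to abolish the daily oscillation of free calcium in the cytosol, whereas toc1-1 is a chemically induced mutation of the clock gene TOC1 that shortens the circadian period. The labels give neither the dose of nicotinamide nor the ecotype of toc1-1, and for toc1-1 they record 150 to 200 seeds plated, against 70 to 100 in both C24 groups, so genotype and sowing density cannot be told apart. The first untreated course was at growth stage 1.03 and the other 5 courses at stage 1.04, and the label notes on lighting end with 12 h days for the first course of both C24 groups and with constant light for the rest. The toc1-1 lesion is induced by a mutagen and is not a deletion, so a probe set for TOC1 would not check the genotype, and none was used here.

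Chloroplasts retain a small genome of their own, transcribed by a plastid-encoded polymerase that relies on nuclear-encoded sigma factors and by a nuclear-encoded polymerase of phage type. Its photosynthesis genes lie mostly in clusters whose long transcripts are cut, trimmed and protected by nuclear-encoded proteins, so that genes of a single cluster can accumulate to different extents. Sigma factor SIG5 is known to carry timing information from the nuclear clock to plastid promoters, among them the light-responsive promoter of psbD. Plastid messages mostly lack a stable poly(A) tail, and the one-cycle labelling used for these arrays starts from oligo(dT). A difference measured here is therefore one in the plastid RNA that this labelling captured, and part of it could lie in tail length, which was not tested. Fewer plastids or cells and less RNA in each cannot be told apart in whole tissue.

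Every array had been scaled to the same trimmed mean of 100 units, and the distribution of signal differed on nicotinamide arrays, with a lower and more variable median. Median signal was 26.5 ± 3.38 on nicotinamide arrays, 35.5 ± 0.99 on toc1-1 arrays and 35.2 ± 1.49 on untreated arrays (SD, n = 24 each). A pair of nicotinamide arrays stood apart, replicate 1 at 77 h and replicate 2 at 85 h, with median correlations to their own group of 0.891 and 0.922, and the next lowest was 0.936. The 25S ribosomal RNA signal averaged 7.89 on the log2 scale under nicotinamide, 8.53 in toc1-1 and 7.70 in untreated seedlings. The summed signal of 5 green-tissue genes ranged from 7710 to 19500 units under nicotinamide (median 9900), from 8410 to 14300 in toc1-1 (median 12700) and from 9870 to 17400 in untreated seedlings (median 13400), and 4 of the 5 fell under nicotinamide and 1 in toc1-1. That of 8 root genes ranged from 1140 to 3000 units (median 2260), 2150 to 5170 (median 3740) and 1340 to 6180 (median 4360) in the same 3 groups, so some root-type transcripts were present in tissue labelled aerial. These 8 were the ones with a named probe set among 14 listed, and EXPA7, EXPA18 and AT1G30870 of them were too weak to be tested. Of 5 root genes tested, 5 fell under nicotinamide and 4 in toc1-1. The part of these differences in the results below was not tested, beyond the fit with 25S as a covariate and the fit without the pair of arrays.

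Under nicotinamide, most transcripts of photosystem II and the cytochrome b6f complex rose, and 4 of the 6 of the ATP synthase fell. Of the 33 genes, 17 rose and 8 fell (limma, adjusted p under 0.05). Among all 13647 probe sets tested, 30.9% were called higher and 48.4% lower. The median difference was 0.28 over the 33 genes and −0.12 over all probe sets, on the scale of log2(signal + 16) that is used for every difference here and understates changes of weak transcripts. By complex, 11 of 15 psb genes rose and 1 fell, 4 of 6 pet genes rose and 1 fell, 4 of 6 atp genes fell and none rose, and the psa genes split into 2 higher and 2 lower. The 8 genes that did not pass the test were psaB, psbI, psbK, psbM, petB, atpE, atpI and rbcL, with differences between −0.25 and 0.11. RbcL, the large subunit of the carbon-fixing enzyme Rubisco, differed by −0.14 ± 0.12 (SE, adjusted p = 0.304). Measured against the median of the plastid probe sets on each array, which averaged 9.75 under nicotinamide and 10.06 in untreated seedlings, the split became 20 higher and 2 lower. Of the called genes, atpB changed sign. That median was taken over 69 plastid probe sets, these 33 among them, so it is no independent reference. Subtracting it shifts every difference of a comparison by the same amount. On that scale atpF alone of the atp genes was called lower. AtpB and atpH were also not called with each time course as a random block, with course means as the only units, or without the 2 arrays that stood apart.

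**Figure D1:**
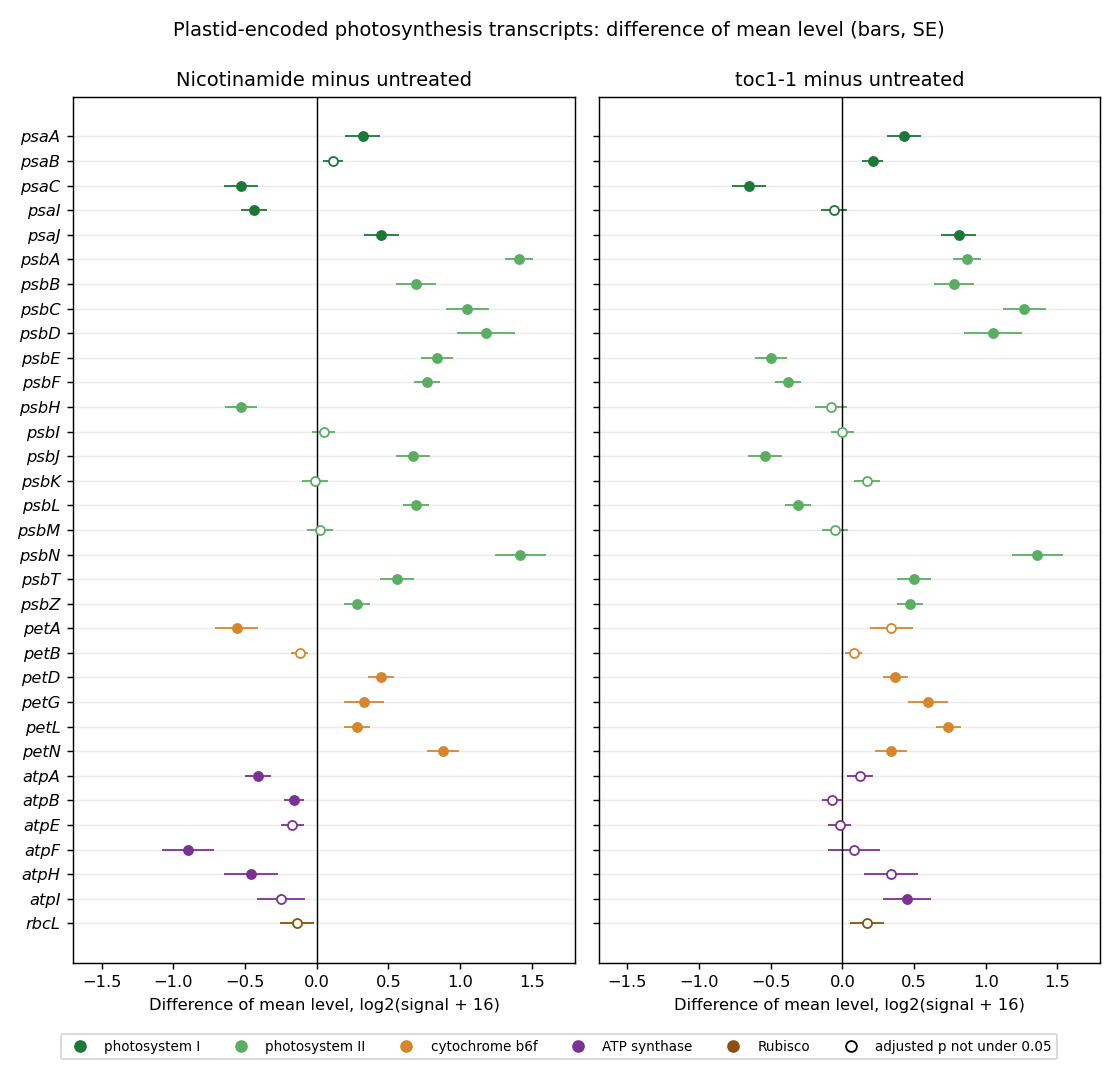
Difference of each of the 33 genes from untreated seedlings in log2(signal + 16), averaged over 12 times, for nicotinamide (left) and for toc1-1 (right), with colours by complex, open points where the adjusted p was not under 0.05, and error bars of 1 standard error from the limma fit. Nicotinamide differences range from −0.90 (atpF) to 1.42 (psbN) and toc1-1 differences from −0.65 (psaC) to 1.36 (psbN).

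PsbA encodes D1, the reaction-centre protein of photosystem II that is damaged by light and continually replaced. Its signal ran from 3510 to 8190 (median 3990) in the first nicotinamide course and from 3680 to 6410 (median 4410) in the second, against 1040 to 2520 (median 1500) and 1210 to 3390 (median 1730) in the untreated courses. Every nicotinamide array therefore lay above every untreated array. PsbA was the only gene of the 33 for which this held, and 2.89% of all probe sets had it. The difference was 1.41 ± 0.10 (SE, adjusted p = 2.05e-17), a 2.66-fold change, and it was positive at all 12 times, between 0.87 and 2.14. No gene of the 33 had all nicotinamide arrays below all untreated arrays, as 6.33% of probe sets did.

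PsbN, which is needed for assembly of photosystem II and is read from the strand opposite the psbB cluster, gave 100 to 532 units (median 224) and 40.5 to 251 units (median 138) in the nicotinamide courses, against 33.6 to 54.5 (median 46.6) and 23.9 to 132 (median 64) in the untreated courses. The first nicotinamide course lay wholly above the first untreated course and overlapped with the second. The second nicotinamide course overlapped with both untreated courses. The difference was 1.42 ± 0.18 (SE, adjusted p = 2.71e-09), or 2.67-fold.

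PsbD and psbC encode D2, the partner of D1 in the reaction centre, and the inner antenna protein CP43, and they lie side by side in a shared cluster. PsbD ran from 762 to 1810 units (median 1220) and from 228 to 724 (median 377) in the nicotinamide courses, against 181 to 525 (median 364) and 111 to 498 (median 260) in the untreated courses. PsbC ran from 2150 to 3690 units (median 2460) and from 1020 to 1960 (median 1550) under nicotinamide, against 539 to 1300 (median 1010) and 513 to 1400 (median 959) in untreated seedlings. In both genes the first nicotinamide course was clear of the untreated arrays and the second overlapped with them. The differences were 1.18 ± 0.20 for psbD (SE, adjusted p = 1.28e-06) and 1.05 ± 0.15 for psbC (adjusted p = 1.78e-08), or 2.27-fold and 2.07-fold. Without the first nicotinamide course the psbD difference was 0.46, and without the second it was 1.90.

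PetN, a small subunit of the cytochrome b6f complex that passes electrons between the photosystems, ran from 76 to 191 units (median 132) and from 58.7 to 339 (median 123) under nicotinamide, against 37 to 154 (median 58.8) and 44.4 to 105 (median 69.5) in untreated seedlings. The ranges overlapped, the nicotinamide mean was higher at all 12 times, and the difference was 0.88 ± 0.11 (SE, adjusted p = 8.7e-10), or 1.84-fold. Among its partners, petD (subunit IV) rose by 0.45 ± 0.09, petG by 0.33 ± 0.14 and petL by 0.28 ± 0.09, while petB, cytochrome b6, gave −0.12 ± 0.06 (adjusted p = 0.061). The petD signal was weak, with medians of 52.2 units under nicotinamide, 46.5 in toc1-1 and 32.8 in untreated seedlings. It reached at most 90 units, and petD was too weak to be tested in the fit on the upper 40% of probe sets. PetG and petL were not called with time course as a random block or without the first nicotinamide course, where they gave 0.283 (adjusted p = 0.121) and 0.173 (0.0944). The petL call was also lost after quantile normalization, and that of petG in 14 of the 72 fits that left out a single array.

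The remaining photosystem genes changed less. PsbB, the antenna protein CP47, rose by 0.69 ± 0.14, the small subunits psbT by 0.56 ± 0.12 and psbZ by 0.28 ± 0.09, and psaA, a reaction-centre protein of photosystem I, by 0.32 ± 0.12. PsaJ, a small subunit of photosystem I, rose by 0.45 ± 0.12 and psaI, another, fell by 0.44 ± 0.09. Without the first nicotinamide course psaA, psaJ, psbB, psbT and psbZ were not called, and their differences were −0.042, −0.003, 0.307, 0.292 and 0.028. PsaA and psbZ were also not called with time course as a random block.

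The 5 genes that were lowest relative to untreated seedlings came from 4 complexes. AtpF, subunit b of the stalk of the ATP synthase, ran from 491 to 2380 units (median 1880) and from 185 to 2010 (median 725) under nicotinamide, against 1320 to 2900 (median 2310) and 1240 to 2760 (median 1820) in untreated seedlings. Its ranges overlapped in both courses, with the second nicotinamide course the lower, and the difference was −0.90 ± 0.18 (SE, adjusted p = 1.31e-05), a level 0.537 times the untreated one. PetA, cytochrome f, ran from 598 to 3030 units (median 2300) and from 464 to 2450 (median 1190), against 1650 to 3160 (median 2060) and 1900 to 3840 (median 2440) in untreated seedlings. The first nicotinamide course of petA thus had the higher median of the first pair, and the difference was −0.56 ± 0.15 (adjusted p = 0.000691). Without the second nicotinamide course it was −0.152.

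PsaC, the iron-sulphur protein at the acceptor side of photosystem I, ran from 144 to 955 units (median 785) and from 275 to 1320 (median 706) under nicotinamide, against 818 to 1330 (median 1030) and 622 to 1060 (median 899) in untreated seedlings. PsbH, a small phosphoprotein of photosystem II, ran from 668 to 2240 units (median 1880) and from 617 to 2370 (median 1320), against 1950 to 2940 (median 2410) and 1260 to 2600 (median 2090) in untreated seedlings. Both were below untreated seedlings at 11 of 12 times, with differences of −0.53 ± 0.12 for psaC (SE, adjusted p = 0.000118) and −0.53 ± 0.11 for psbH (adjusted p = 2.24e-05). AtpH, the ring subunit c, ran from 560 to 2760 units (median 2240) and from 293 to 1810 (median 920), against 1110 to 2990 (median 1910) and 1010 to 2040 (median 1670), so that only its second course had the lower median. Its difference of −0.46 ± 0.19 (adjusted p = 0.0242) was −0.305 (adjusted p = 0.104) without the arrays at 77 h and 85 h that stood apart, and 0.152 without the second nicotinamide course. AtpA, the catalytic-head subunit alpha, fell by 0.41 ± 0.09 and atpB, subunit beta, by 0.16 ± 0.07, and the atpB call was also lost without those arrays.

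In toc1-1, 4 of the 6 pet genes, 3 of 5 psa genes, 7 of 15 psb genes and 1 of 6 atp genes rose, and 4 psb genes and psaC fell. Of the 33 genes, 15 rose and 5 fell, against 22.1% and 19.6% of all probe sets, and the median difference was 0.21 over the 33 genes and 0.02 over all. The genes that fell were psaC, psbE, psbF, psbJ and psbL. Those that rose were psaA, psaB, psaJ, psbA, psbB, psbC, psbD, psbN, psbT, psbZ, petD, petG, petL, petN and atpI. The 13 others, psaI, psbH, psbI, psbK, psbM, petA, petB, atpA, atpB, atpE, atpF, atpH and rbcL, differed by between −0.08 and 0.34 and did not pass. With 25S ribosomal RNA as a covariate the calls of psaB and atpI were lost and psaI was called, and under nicotinamide that covariate lost no call and added petB and atpE. Relative to the median of the same 69 plastid probe sets, which averaged 10.47 in toc1-1, the split became 7 higher and 15 lower. Of the called genes, psaB, petD and petN changed sign. With each time course as a random block, 9 genes remained higher and 1 lower, and with the 6 course means as the only units, psaC (adjusted p = 0.037), petL (0.025) and petG (0.0423) remained.

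PsbN was again highest, with 82.2 to 159 units (median 107) and 87.1 to 430 units (median 249) in the toc1-1 courses, against 33.6 to 54.5 (median 46.6) and 23.9 to 132 (median 64) in the untreated courses. PsbC ran from 1160 to 2840 units (median 1740) and from 2200 to 4210 (median 2770) in toc1-1, and psbD from 375 to 865 (median 503) and from 618 to 1080 (median 772), with the untreated values given above. PsbA ran from 1940 to 3000 units (median 2600) and from 2950 to 5210 (median 3480) in toc1-1. In these 4 genes the second toc1-1 course had the higher median, and the toc1-1 mean was higher at all 12 times. The differences were 1.36 ± 0.18 for psbN (SE, adjusted p = 9.75e-08), 1.27 ± 0.15 for psbC (3.61e-09), 1.05 ± 0.20 for psbD (5.24e-05) and 0.87 ± 0.10 for psbA (1.31e-09), that is 2.57-fold, 2.41-fold, 2.07-fold and 1.83-fold. No gene of the 33 had all toc1-1 arrays above or all below the untreated arrays, which 0.11% and 0.139% of probe sets had.

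PsaJ ran from 2890 to 5990 units (median 4260) and from 4010 to 5780 (median 4760) in toc1-1, against 1710 to 3330 (median 2470) and 2250 to 3710 (median 2720) in untreated seedlings. Its first toc1-1 course overlapped with both untreated courses, and its second lay above both. PsaJ rose by 0.81 ± 0.12 (SE, adjusted p = 1.14e-06). Its neighbours petL and petG, small subunits of the cytochrome b6f complex, rose by 0.74 ± 0.09 (adjusted p = 1.71e-08) and 0.60 ± 0.14 (adjusted p = 0.000642). PetL and psaC were the 2 of the 20 called genes that passed under each of the 21 other ways of processing the data, single arrays left out aside.

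PsaC fell in toc1-1, where it ran from 447 to 716 units (median 540) and from 480 to 880 (median 585), against 818 to 1330 (median 1030) and 622 to 1060 (median 899) in untreated seedlings. The first toc1-1 course lay wholly below the first untreated course and overlapped with the second. The second toc1-1 course overlapped with both untreated courses, and the toc1-1 mean was lower at all 12 times. The difference was −0.65 ± 0.12 (SE, adjusted p = 3.39e-05).

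The 4 other genes that fell form a single cluster, psbE-psbF-psbL-psbJ, whose products include cytochrome b559 (psbE and psbF) and small subunits of photosystem II (psbL and psbJ). In toc1-1, psbE ran from 325 to 500 units (median 426) and from 419 to 802 (median 572), against 579 to 902 (median 688) and 490 to 1020 (median 707) in untreated seedlings. PsbJ ran from 361 to 674 units (median 536) and from 418 to 653 (median 540) in toc1-1, against 606 to 944 (median 779) and 459 to 1180 (median 859) in untreated seedlings. The first toc1-1 course of psbE lay wholly below the first untreated course and overlapped with the second, and the other toc1-1 ranges overlapped with both.

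PsbF ran from 743 to 997 units (median 839) and from 899 to 1490 (median 1130) in toc1-1, against 1030 to 1660 (median 1210) and 1160 to 1670 (median 1290) in untreated seedlings. PsbL ran from 207 to 329 units (median 244) and from 210 to 404 (median 297), against 248 to 531 (median 327) and 268 to 492 (median 351). The first toc1-1 course of psbF lay below the first untreated course throughout, and psbL overlapped in both. The differences were −0.54 ± 0.12 for psbJ (SE, adjusted p = 0.000348), −0.50 ± 0.11 for psbE (0.00041), −0.38 ± 0.09 for psbF (0.00116) and −0.31 ± 0.09 for psbL (0.0077). With time course as a random block their adjusted p values were 0.0766, 0.0512, 0.0786 and 0.217, so none was called in that fit. On the plastid-median scale all 4 were also lower.

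The same cluster rose under nicotinamide. There psbE ran from 363 to 1430 units (median 1250) and from 802 to 1940 (median 1560), and psbF from 581 to 2800 (median 2260) and from 1580 to 3180 (median 2520). PsbL ran from 130 to 692 units (median 585) and from 358 to 759 (median 638), and psbJ from 332 to 1450 (median 1260) and from 463 to 2220 (median 1500). Each course median was above both untreated course medians of its gene, although in the first course of all 4 genes the lowest nicotinamide array was below the untreated range. The differences from untreated seedlings were 0.84 ± 0.11 for psbE (SE, adjusted p = 6.81e-09), 0.77 ± 0.09 for psbF (6.09e-10), 0.69 ± 0.09 for psbL (9.33e-09) and 0.67 ± 0.12 for psbJ (2.76e-06). In all 4 genes the nicotinamide mean was lowest at 77 h, where the replicate 1 array stood apart. Without the 2 arrays that stood apart, the differences were 0.942 for psbE, 0.877 for psbF, 0.809 for psbL and 0.823 for psbJ.

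Both comparisons share the untreated arrays, so nicotinamide and toc1-1 were also set against each other directly. Of the 33 genes, 6 were higher under nicotinamide than in toc1-1 and 12 were lower, against 30.3% and 50.1% of all probe sets, and the median difference was −0.11. The 6 higher genes were psbE, psbF, psbL and psbJ, with petN and psbA. For the 4 cluster genes the difference was 1.33 for psbE (adjusted p = 1.8e-14), 1.21 for psbJ (2.6e-12), 1.14 for psbF (6.75e-15) and 1.00 for psbL (5.48e-13), or 2.52-fold, 2.31-fold, 2.21-fold and 2.00-fold. These 4 genes and atpF kept their call under each of the 21 other ways of processing. With the course means as the only units, their adjusted p values were 0.00094 for psbE, 0.000241 for psbJ, 0.000997 for psbF and 0.000297 for psbL.

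PsbA exceeded its toc1-1 level by 0.54 under nicotinamide (adjusted p = 2.43e-06) and petN by 0.55 (1.61e-05). The genes that were lower under nicotinamide than in toc1-1 included atpF, by −0.98 (adjusted p = 2.75e-06), petA, by −0.91 (5.37e-07), and atpH, by −0.80 (0.000163). The others were psaI, psaJ, psbH, psbZ, petB, petL, atpA, atpI and rbcL, between −0.19 and −0.70. PsbN, psbD and psbC differed by 0.06, 0.13 and −0.22 (adjusted p = 0.765, 0.559 and 0.169), which does not show their levels to be alike. Against the plastid median, which averaged 9.75 under nicotinamide and 10.47 in toc1-1, the split was 28 higher and 1 lower, and these 9 genes changed sign, whereas atpF, petA and atpH did not.

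**Figure D2:**
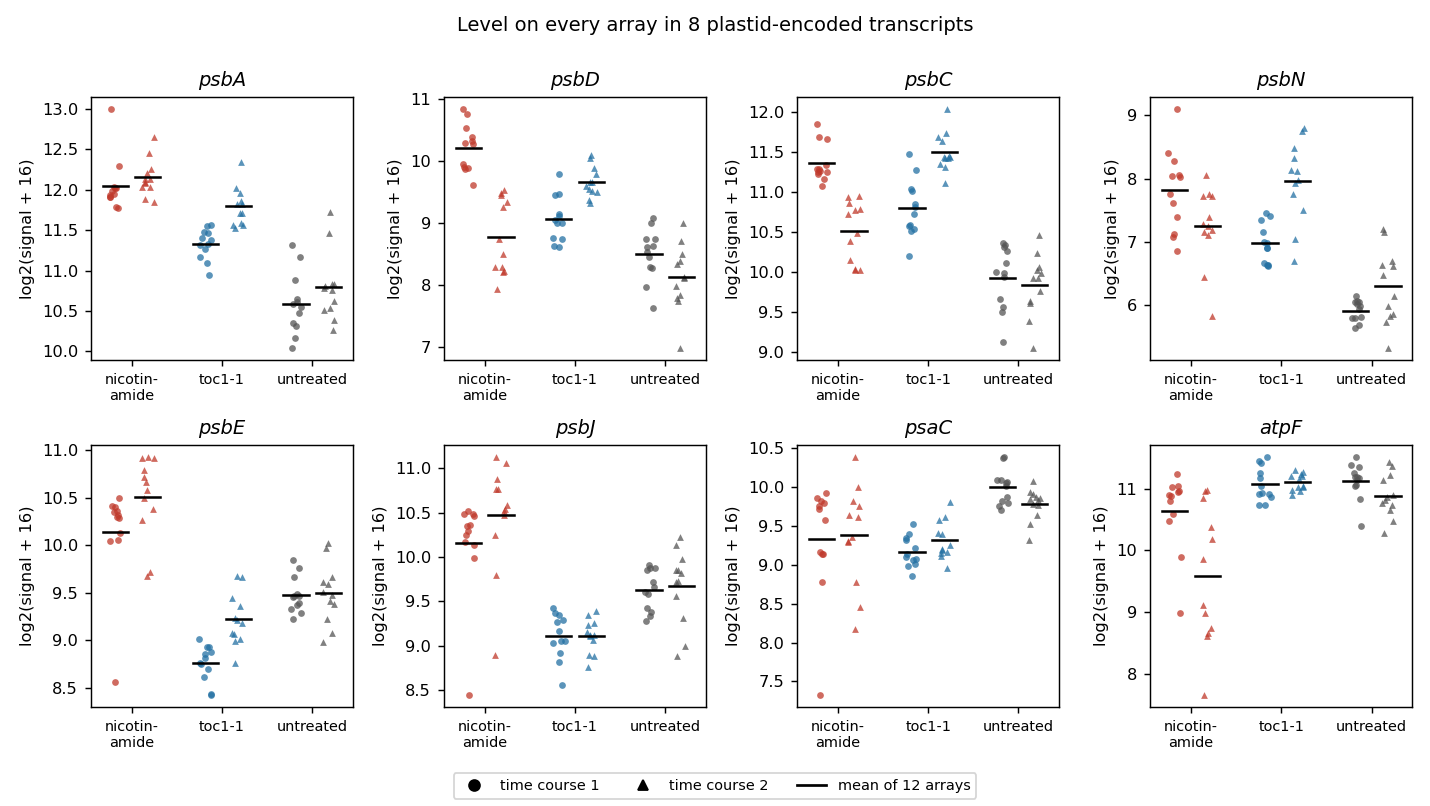
Signal on every array for psbA, psbD, psbC, psbN, psbE, psbJ, psaC and atpF, in log2(signal + 16), with the nicotinamide, toc1-1 and untreated groups from left to right, the 2 time courses of each group side by side circles for the first and triangles for the second course, and a line at the mean of 12 arrays. PsbA of nicotinamide arrays, at 3510 units and above, lies over every untreated array, and the 2 nicotinamide courses of psbD have medians of 1220 and 377 units.

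The gap between replicate time courses was wide for many of these genes. The difference between the 2 courses of a group had a median size of 0.29 over the 33 genes under nicotinamide, 0.19 in toc1-1 and 0.20 in untreated seedlings, against 0.18, 0.07 and 0.10 over all probe sets. It exceeded 0.5 for 11 genes under nicotinamide, 4 in toc1-1 and 1 in untreated seedlings, against 9.45%, 0.125% and 0.528% of all probe sets. Under nicotinamide the first course was higher by 1.45 for psbD, 1.22 for atpH, 1.06 for atpF and 0.98 for atpI. The gap was −0.10 for psbA, −0.04 for petN and between −0.36 and −0.18 for psbE, psbF, psbJ and psbL. In toc1-1 the second course was higher for all 33 genes, and the 25S ribosomal RNA signal of that course averaged 9.18, against 7.87 in the first. Whether the 2 move together for a shared reason was not tested.

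Counted by course means, both nicotinamide courses lay above both untreated courses for 14 genes and below them for 7, against 30.8% and 46.8% of all probe sets. Both toc1-1 courses lay above both untreated courses for 19 genes and below for 5, against 35.6% and 29.5%. With the course means as units in the fit, 16 of the 33 genes were called under nicotinamide, 11 higher and 5 lower. PsbD (adjusted p = 0.0575) and petA (0.0957) were not among them, whereas psbA (0.000459) and psbE (0.00672) were. In all, 9 of the 25 genes called under nicotinamide passed under each of the 21 other ways of processing: psbA, psbC, psbE, psbF, psbJ, psbL, psbN, petN and atpF.

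The differences were also read along the plastid chromosome, by cluster, with no test of whether neighbours are alike. The order of genes was taken from the RefSeq annotation of the Columbia accession, without positions. The cluster atpI-atpH-atpF-atpA had differences of −0.25, −0.46, −0.90 and −0.41 under nicotinamide, with 3 of its 4 genes called lower, and 0.45, 0.34, 0.08 and 0.12 in toc1-1, with atpI called higher. The separate atpB-atpE pair, which holds subunits beta and epsilon, had −0.16 and −0.17 under nicotinamide and −0.07 and −0.02 in toc1-1. PsbK and psbI, both for small subunits of photosystem II, gave −0.01 and 0.05 under nicotinamide and 0.17 and 0.00 in toc1-1, and passed no test. PsaA and psaB, the paired reaction-centre proteins of photosystem I, gave 0.32 and 0.11 under nicotinamide and 0.43 and 0.21 in toc1-1.

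The psbB cluster was mixed under nicotinamide. PsbB, psbT and petD rose by 0.69, 0.56 and 0.45, psbH between them fell by 0.53, and petB gave −0.12, which was not called. In toc1-1, psbB, psbT and petD rose by 0.78, 0.50 and 0.37, while psbH gave −0.08 (adjusted p = 0.559) and petB gave 0.08 (adjusted p = 0.311). The weak petD signal was at most 90 units on any array. Probe sets of neighbouring genes can detect the same long precursor, and how much of each signal came from precursors was not tested.

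PsaC stands in a cluster of ndh genes, which encode the NADH dehydrogenase-like complex. Its neighbour ndhD had differences of −0.01 under nicotinamide and 0.15 in toc1-1, and ndhE, on the other side, −0.15 under nicotinamide and 0.50 in toc1-1, while psaC was lower in both conditions. PsaI and petA lie in a cluster with accD, ycf4 and cemA, and under nicotinamide these 5 genes had differences of −0.44, −0.56, −1.26, −0.71 and −0.55.

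**Figure D3:**
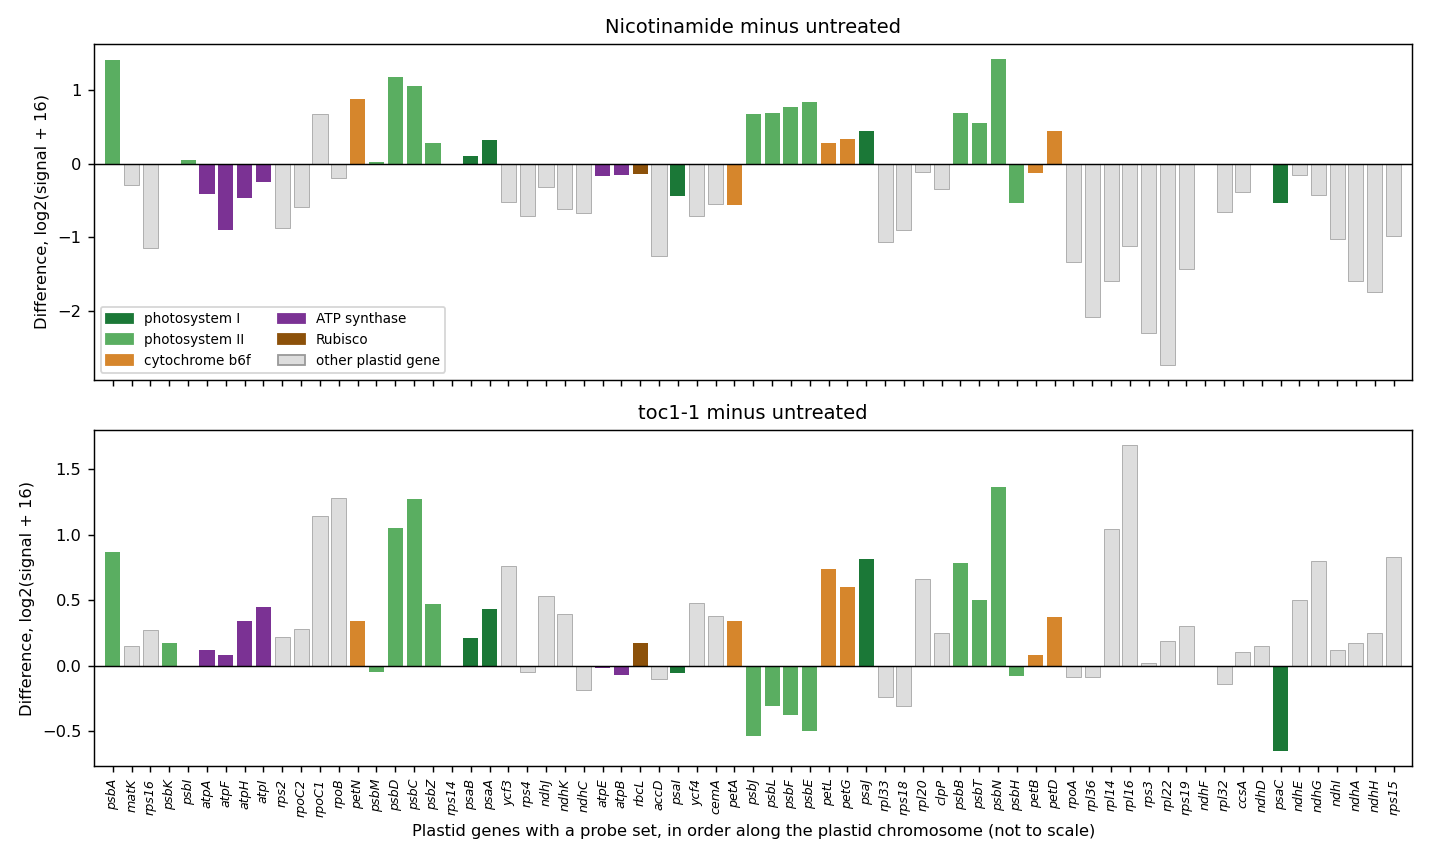
Differences from untreated seedlings in log2(signal + 16) for the tested plastid genes in the order of the RefSeq annotation, with nicotinamide above toc1-1 and bars coloured by complex, all other plastid genes in grey, and no bar for rps14 and ndhF, which were not tested. Under nicotinamide the bars of ndh genes and of other plastid genes lie mostly below 0 (medians −0.62 and −0.87) and those of the 33 photosynthesis genes on both sides (median 0.28).

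Most other plastid genes fell under nicotinamide. Of 9 ndh genes tested, 7 fell and none rose, with a median of −0.62. Of 25 further plastid genes, mostly for ribosomal proteins and RNA polymerase subunits, 22 fell, with a median of −0.87, and rpoC1 alone rose, by 0.68. In toc1-1, 5 of the 9 ndh genes rose and none fell, and 7 of the 25 rose and none fell, with medians of 0.25 in both sets. Among all probe sets, 48.4% were called lower under nicotinamide and 22.1% higher in toc1-1. These counts describe the sets, and the difference between them was not tested.

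Few of the 33 genes, and few of the other plastid genes, were called rhythmic. A 24 h cosine and sine term was tested in each group, and the genes called rhythmic numbered 2 under nicotinamide, 0 in toc1-1 and 0 in untreated seedlings. The period was held at 24 h in toc1-1 too, although that mutation shortens the circadian period. The toc1-1 counts and amplitudes given here therefore hold for a 24 h period only. Among all probe sets, limma called 32% rhythmic under nicotinamide, 8.54% in toc1-1 and 22.9% in untreated seedlings. Of the 9 ndh genes tested, 0 were called in each group. Of the 25 further plastid genes, 1 was called under nicotinamide, 0 in toc1-1 and 0 in untreated seedlings. At an unadjusted p under 0.05 the counts of the 33 were 4, 0 and 1, and with replicate number as a block the adjusted counts were 3, 0 and 1. The median amplitude of the 33 was 0.16 under nicotinamide, 0.07 in toc1-1 and 0.10 in untreated seedlings, against 0.16, 0.09 and 0.12 over all probe sets. Its standard error had a median of 0.11 for the 33 and 0.07 for all probe sets, so that rhythms of small amplitude were harder to detect in these genes. For the ndh genes the median amplitude was 0.26, 0.08 and 0.06 in the same 3 groups, with a median standard error of 0.14. For the further plastid genes it was 0.42, 0.08 and 0.16, with a median standard error of 0.18. Few calls there do not show that amplitudes were low.

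**Figure D4:**
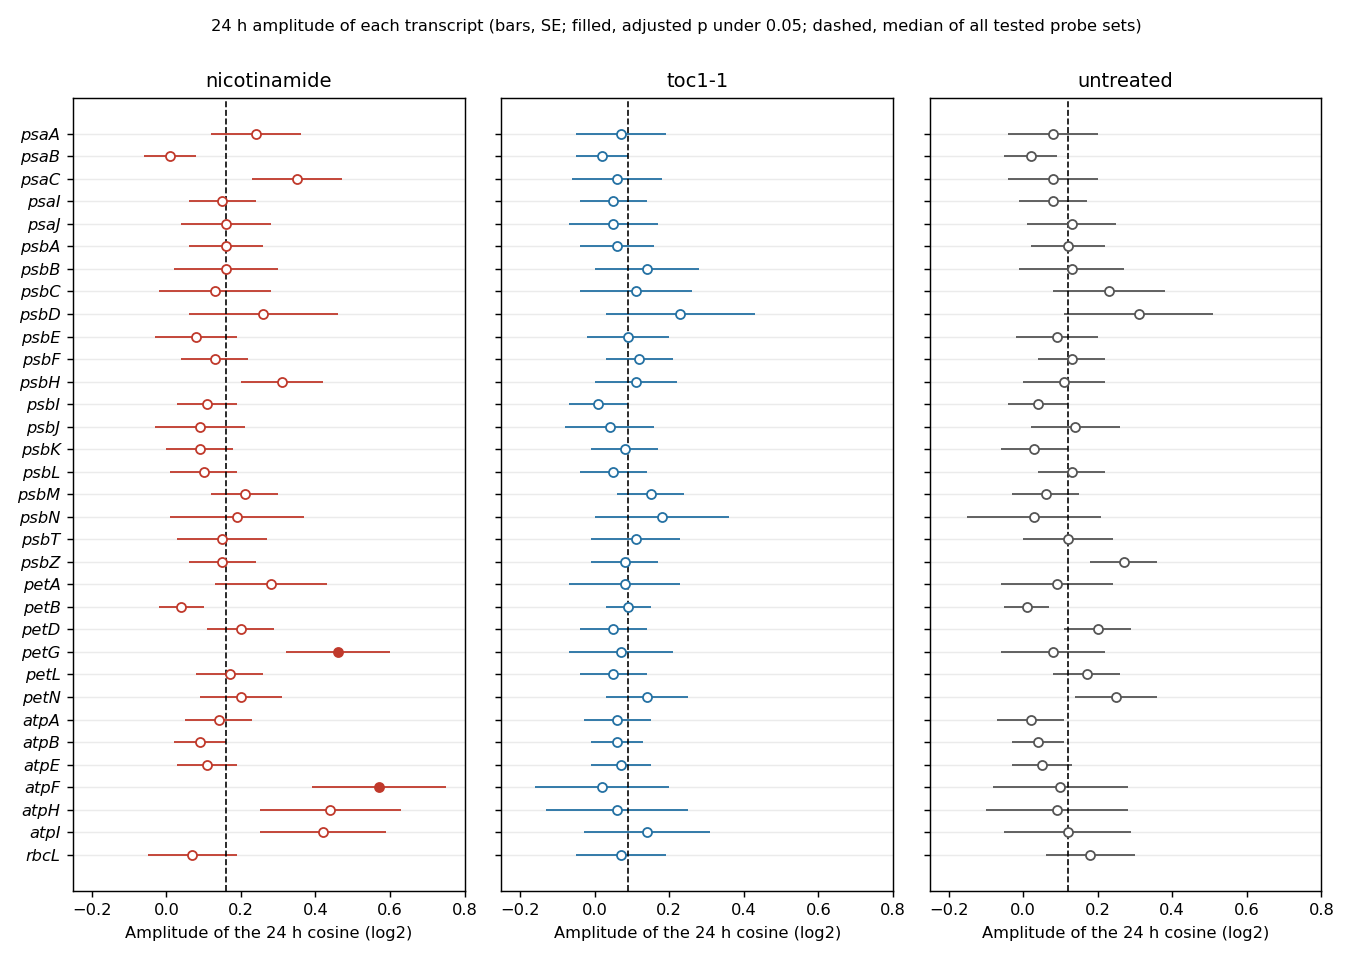
Amplitude of the fitted 24 h rhythm of each of the 33 genes in log2(signal + 16), with nicotinamide, toc1-1 and untreated from left to right, bars of 1 standard error, a dashed line at the median of all probe sets, and filled points where the rhythm test was passed. Amplitudes run from 0.01 to 0.57 under nicotinamide, from 0.01 to 0.23 in toc1-1 and from 0.01 to 0.31 in untreated seedlings, and 2 points, atpF and petG, are filled.

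AtpF had an amplitude of 0.57 ± 0.18 under nicotinamide (SE, adjusted p = 0.0322) with a peak at 20.6 h, and 0.10 in untreated seedlings. PetG, whose signal ran from 53 to 410 units (median 229) and from 125 to 375 (median 185) under nicotinamide, against 21.8 to 226 (median 168) and 58.7 to 320 (median 238) in untreated seedlings, had an amplitude of 0.46 ± 0.14 (adjusted p = 0.0304) with a peak at 22.8 h, and 0.08 in untreated seedlings. Peaks are given in hours from 0 to 24 on the time scale of the labels. The difference in rhythm between nicotinamide and untreated seedlings did not pass for atpF (adjusted p = 0.173) or petG (0.308). Without the 2 nicotinamide arrays that stood apart, neither gene was called rhythmic and psaC alone was.

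In untreated seedlings psbZ had the smallest p and psbD the largest amplitude, and both missed the threshold. PsbZ had an amplitude of 0.27 ± 0.09 (SE, adjusted p = 0.058) with a peak at 2.33 h, and psbD, whose promoter is the known target of SIG5, had 0.31 (adjusted p = 0.56). A difference of rhythm from untreated seedlings was called for 0 genes under nicotinamide, where 25.9% of probe sets had one, and for 0 in toc1-1, where 7.2% had one. At an unadjusted p under 0.05, limma gave 2 genes under nicotinamide and 0 in toc1-1, and with the replicate block 1 gene was called under nicotinamide.

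The second sampled day was also compared with the first sampled day, as the mean of 73 to 93 h less that of 49 to 69 h. Under nicotinamide, psaC fell by 0.56 ± 0.17 (SE, adjusted p = 0.0375) and petD by 0.42 ± 0.13 (adjusted p = 0.0421), the only 2 of the 33, against 7.55% of all probe sets. In untreated seedlings their values were 0.06 and 0.07. The test of the change between nicotinamide and untreated seedlings gave adjusted p = 0.15 for psaC and 0.139 for petD. Neither was called without the 2 arrays that stood apart, both of which were harvested on the second sampled day. The petD signal was also weak, at most 90 units on any array.

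In toc1-1 the count of genes that changed between days was 0, against 5.7% of all probe sets, and in untreated seedlings it was 0, against 0.0366%. At an unadjusted p under 0.05, limma gave 8 genes under nicotinamide, 0 in toc1-1 and 1 in untreated seedlings. A change between days that differed from the untreated one was called for 0 genes under nicotinamide, against 1.03% of probe sets, and for 0 in toc1-1, against 0%. The unadjusted counts for those tests were 6 and 0, and 634 of all probe sets had an unadjusted p under 0.05 in toc1-1.

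**Figure D5:**
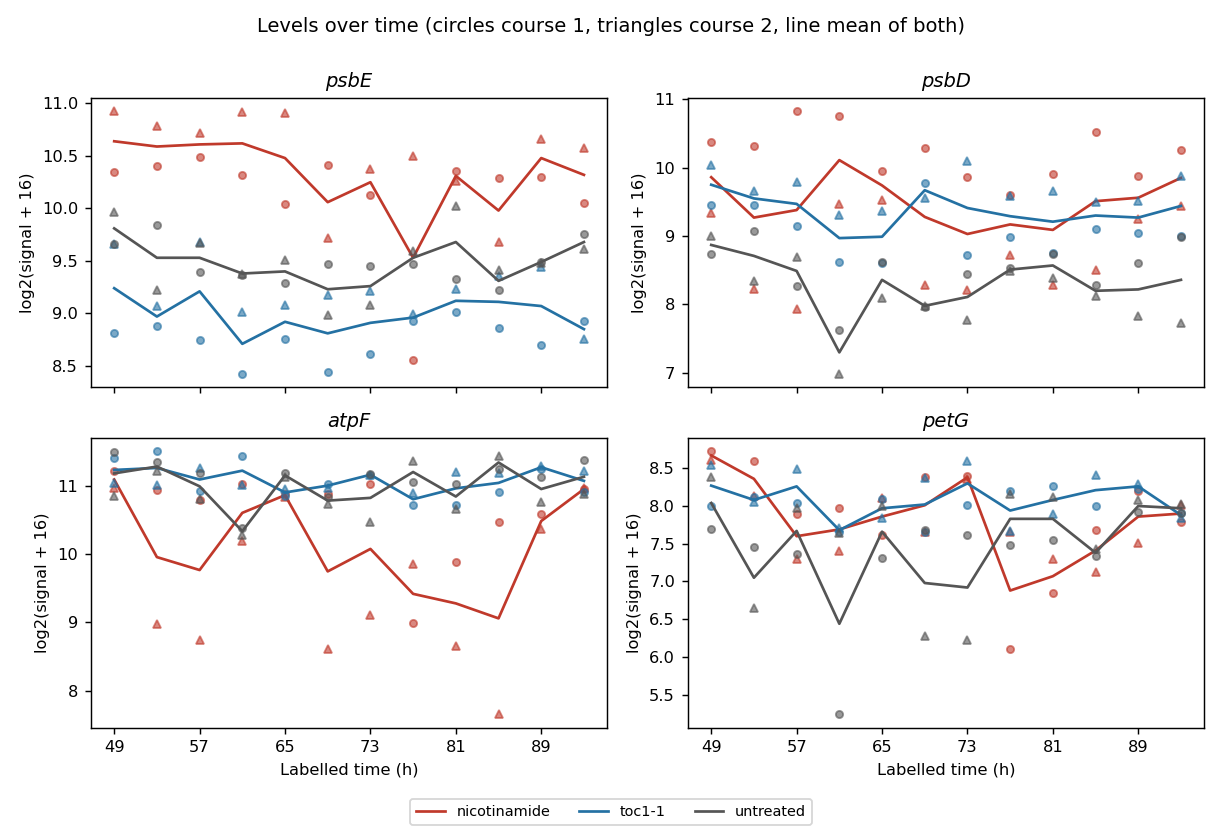
Level of psbE, psbD, atpF and petG in log2(signal + 16) over the labelled times from 49 to 93 h, with circles for the first and triangles for the second course and a line through the mean of both, in the nicotinamide, toc1-1 and untreated groups. The psbE line lies above the untreated one at 12 times under nicotinamide, by between 0.00 and 1.24, and below it at 12 times in toc1-1, and the circle of nicotinamide at 77 h is one of the 2 arrays that stood apart.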

How the data were processed

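Biotin-labelled target was prepared from total RNA with the one-cycle procedure, per the labels' protocols, and hybridised to 1-colour ATH1 arrays. The files hold a linear intensity for each probe set, deposited by the authors. The submitters' processing notes name MAS5 and GCOS for them, and versions are not given in the sources used here. Without the highest and lowest 2% of probe sets, each array averaged 100 units.

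Here 16 was added to each intensity and log2 taken. After removal of 64 controls, the upper 60% by mean level, 13647 probe sets, were tested in limma 3.58.1 (R 4.3.3, with files read by version 1.17.8 of data.table) with a mean for each group and time, moderated variances with an intensity trend, and Benjamini-Hochberg adjustment over all of them (threshold 0.05). Mean levels were averaged over 12 times, and rhythm was tested by the moderated F of 24 h cosine and sine terms. The procedure was tested on simulated data. Precision is limited by the number of arrays. The labels do not state that replicates came from separate batches of seedlings, so the p values reflect the spread among these arrays alone, with the harvests of a course treated as independent.

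Genes were named from the supplied array annotation, in which 13513 probe sets had 1 gene, and from RefSeq for order on the plastid chromosome. Sequences are not used here. The genes with full values are the 5 highest and 5 lowest relative to untreated seedlings in each comparison, and those called rhythmic. From other lists up to 4 genes with the smallest adjusted p are named. The members, lists and tests were chosen with earlier results of these data known. Alternatives covered normalization, the added constant, the filter, thresholds, blocks and course means, the 25S signal, the plastid median, the assumed period, and each course and each array left out. The fit without the pair of arrays that stood apart was chosen after seeing the data.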

Additional observations from a re-analysis of the deposited data

How the results depend on the processing

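Counts are of the 33 genes. For mean levels under nicotinamide the count of 25 became 19 with time course as a random block (13 higher, 6 lower, without psaA, psbZ, petG, petL, atpB and atpH), 16 with course means as units (11 higher, 5 lower) and 11 with a minimum change of 1.5-fold (10 higher, 1 lower), and relative to the plastid median 2 were lower. For toc1-1 the count of 20 became 10 with time course as a random block (9 higher, 1 lower), 3 with course means (2 higher, 1 lower) and 9 at 1.5-fold (8 higher, 1 lower), and relative to the plastid median 7 were higher and 15 lower. For nicotinamide against toc1-1 the count of 18 became 8 at 1.5-fold (4 lower) and 29 relative to the plastid median (28 higher, 1 lower), and course means left 6 lower. The median of all probe sets under nicotinamide was −0.12, and 0.01 after quantile normalization. The correlation of the random block was 0.16. With course means the fit has 6 units, which limits what it can call.

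Genes rhythmic under nicotinamide numbered 2, and 4 after quantile normalization, 1 with no filter, 0 at an adjusted p under 0.01, 6 with the random block, 0 without the 3 arrays whose titles end in 2, 5 with 25S as covariate, 5 with a linear trend, 1 with periods of 26 h and 21 h, and 1 without the arrays at 77 h and 85 h that stood apart. A different rhythm under nicotinamide was called for 1 gene after quantile normalization, with the replicate block, with the random block, with 25S, with those periods and without the pair of arrays. In untreated seedlings 1 gene was rhythmic with the replicate block, the random block and 25S, and without the pair. Genes changed between days under nicotinamide numbered 2, and 0 with no filter, 1 in the upper 40%, 0 at 0.01, 5 with the random block, 0 without the 3 arrays, 1 with 25S and 0 without the pair.

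With 1 of the 6 courses left out, the counts ran from 19 to 26 under nicotinamide (10 to 19 higher, 6 to 9 lower), 14 to 23 in toc1-1 (9 to 18 higher, 2 to 5 lower) and 16 to 24 between them (6 to 9 higher, 8 to 18 lower). Rhythmic genes ran from 0 to 10 under nicotinamide, 0 to 0 in toc1-1 and 0 to 2 in untreated seedlings, a different rhythm from 0 to 9 under nicotinamide and 0 to 0 in toc1-1, and changes between days from 0 to 10 under nicotinamide and 0 to 0 in toc1-1 and in untreated seedlings. With 1 of the 72 arrays left out, the counts for mean levels ran from 23 to 27, 19 to 21 and 16 to 20. In those fits rhythmic genes under nicotinamide ran from 0 to 8 and changes between days from 0 to 11, with 8 rhythmic genes without nicotinamide replicate 1 at 57 h or replicate 2 at 77 h, and 11 changes without replicate 1 at 85 h.

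Whether replicate numbers pair the samples is not settled, since the labels state no shared batch and each group has only 2. For each probe set, the mean of the first course less that of the second was taken in each group and correlated between groups. Over all probe sets the correlation was 0.18 between nicotinamide and toc1-1, 0.52 between nicotinamide and untreated and 0.22 between toc1-1 and untreated. Over the 33 genes the correlations were −0.34, 0.53 and −0.12. With the replicate block 26 genes were called under nicotinamide (17 higher, 9 lower), 20 in toc1-1 and 18 between them, and 3 were rhythmic under nicotinamide. No call on a mean level was lost under nicotinamide or in toc1-1, and atpE was added under nicotinamide.

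The differences listed next changed sign and were called in the main fit or in the fit named. Sign changes of differences called in neither are not listed. Relative to the plastid median, psbK was 0.304 and atpB 0.156 under nicotinamide. In toc1-1 psaB was −0.192, psbI −0.403, petB −0.326, petD −0.035, petN −0.068, atpA −0.281, atpF −0.320 and rbcL −0.233. Between nicotinamide and toc1-1 on that scale, psaA was 0.609, psaB 0.620, psaI 0.346, psaJ 0.355, psbB 0.632, psbC 0.505, psbH 0.273, psbK 0.540, psbZ 0.531, petB 0.519, petG 0.451, petL 0.269, atpA 0.183, atpB 0.633, atpE 0.575, atpI 0.019 and rbcL 0.415. With courses left out one at a time, the difference under nicotinamide ran from −0.042 to 0.675 for psaA, from −0.003 to 0.898 for psaJ, from −1.06 to 0.152 for atpH and from −0.742 to 0.238 for atpI. Between nicotinamide and toc1-1 it ran from −0.472 to 0.245 for psaA, from −0.818 to 0.083 for psaJ, from −0.593 to 0.852 for psbD, from −0.430 to 0.551 for psbN and from −0.44 to 0.058 for psbZ. The cause of these changes was not tested, apart from the smaller number of arrays or units in the fits that leave some out.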

Other observations

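Of 47 nuclear genes listed for subunits of the same complexes or, as Rubisco activase (RCA), for their upkeep, 7 had a named probe set and were tested. Under nicotinamide 4 fell and none rose, where 48.4% of all probe sets were called lower. ATPC2 and ATPC1, both for the gamma subunit of the ATP synthase, differed by −0.48 ± 0.05 (SE, limma adjusted p = 4.91e-12) and −0.18 ± 0.05 (0.00223). PSAN and PSAE-1, subunits of photosystem I, differed by −0.56 ± 0.07 (adjusted p = 2.4e-10) and −0.21 ± 0.07 (0.00453). In toc1-1, limma called 0 of the 7, with differences between −0.15 and 0.07.

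Mitochondrial genes, here those named nad, cox, ccb or matR, are likewise mostly without stable poly(A) tails. They had 22 probe sets, of which 8 passed the filter on mean level and were tested. Under nicotinamide 6 rose and none fell, with a median of 0.43, where 30.9% of all probe sets were called higher. In toc1-1 4 rose and none fell, with a median of 0.19, where 22.1% of all probe sets were called higher. Of 25 genes listed for plastid transcription and 18 for plastid mRNA processing, none was named by the supplied annotation, and they were not analysed here.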
